A study of Mus musculus with 16 samples.

Results

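This set of 38 genes marks the endothelium of lung capillaries and liver sinusoids. The genes were taken by symbol, with no cut-off on a measured value, but the list was chosen with earlier results of these data known. All 38 were found once among the 25054 entries of the deposited count table. Lung and liver RNA came from newborn C57BL/6J pups whose parents, both heterozygous for Man1a2, were fed NAC (N-acetyl cysteine, a glutathione precursor) at up to 1 g per kg body weight, or water as placebo, from before mating to the birth. Man1a2 encodes a Golgi mannosidase that trims N-glycans, and the 4 pup groups were wild type (WT) and heterozygous (Het) pups that lived, and Het and null pups that died. Each group gave 1 pooled library per treatment and tissue label, 16 in all, with RNA of 3 experiments per pool of live pups and of 2 for dead Het pups, while the sources differ between 3 and 2 for dead null pups. No library came from dead WT or live null pups, so survival and genotype cannot be told apart outside the Het pups. Dead pups had died in the first day after birth, and live pups were killed when that day was over. Survival and age at harvest can therefore not be told apart in any group, Het pups included.

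The labelled tissue was checked first against marker genes that are not in the set. Sftpc, the surfactant protein C gene of alveolar epithelium, and Alb, the albumin gene of hepatocytes, sorted the libraries into 3 kinds. Lung-content libraries (n = 7) had at least 1000 CPM (counts relative to library size) of Sftpc and less than 1000 of Alb, with ranges of 4446 to 11758 and 10.5 to 135.0 CPM. Liver-content libraries (n = 8) had at least 50000 CPM of Alb, with a range of 51003 to 101254, and from 0.062 to 3.10 CPM of Sftpc. The library labelled dead null placebo lung was mixed, with 5553 CPM of Sftpc and 9280 of Alb. Total counts were 7236865 to 11808823 in lung content, 14115802 to 16107749 in liver content and 8601326 in the mixed library. Only 7 of the 16 libraries held the content that their tissue label names. The libraries of lung content were labelled live WT NAC lung, live Het NAC lung, dead Het placebo lung, live WT placebo liver, live Het placebo liver, dead Het NAC liver and dead null placebo liver. Those of liver content were labelled live WT NAC liver, live Het NAC liver, dead Het placebo liver, dead null NAC liver, live WT placebo lung, live Het placebo lung, dead Het NAC lung and dead null NAC lung. Whether the pup group or treatment label of the 9 other libraries is also exchanged was not tested, and both are used below as labelled. In liver content, edgeR's coefficient of variation between 2 libraries ran from 0.0863 (live Het placebo lung with dead null NAC liver) to 0.441. Between the libraries labelled dead null NAC it was 0.422. In lung content it ran from 0.0913 (dead Het placebo lung with live Het placebo liver) to 0.369 (live Het NAC lung with live Het placebo liver). Man1a2 itself gives no check, because counts were deposited by gene and the null allele lacks only exon 2. Its level was 34.3 and 34.9 CPM in the null libraries of liver content and 29.7 to 51.9 CPM in the other liver-content libraries, 60.3 CPM in the null library of lung content and 41.4 to 75.4 CPM in the others, and 49.4 CPM in the mixed library.

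Endothelial cells line every vessel and share a core of junction proteins (Cdh5, Pecam1, Cldn5), receptors for vascular growth factors (Kdr, Tek, Tie1) and transcription factors of the ETS and SOX families (Erg, Fli1, Sox7, Sox18). In lung alveoli they form a thin continuous capillary wall, in which one kind of cell carries the carbonic anhydrase Car4 and another the apelin receptor Aplnr. In liver they form fenestrated sinusoids whose scavenger and lectin receptors (Stab1, Stab2, Clec4g) clear material from portal blood, under control of the transcription factors Gata4 and Maf. Several of the sinusoidal genes are also used by other cells, Mrc1, Maf, Fcgr2b and Stab1 by macrophages and Lyve1 and Flt4 by lymphatic vessels.

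Promoter entries of RefSeq on GRCm38.p6 were matched for 19 of the 38 genes, with 23 promoters in all. The 250 bases before the start are shown for 4 genes that stand for the contrasts below: Eng, the gene that passed the test of NAC, Car4 and Clec4g, which were nearly limited to 1 content, and Stab1, a sinusoidal gene measured in both. Each is written 5′ to 3′ on the strand of its gene, and capitals mark GGAA or its reverse complement TTCC, the core that ETS factors such as Erg and Fli1 recognise.
Eng (chr2:32646345-32646594, plus strand): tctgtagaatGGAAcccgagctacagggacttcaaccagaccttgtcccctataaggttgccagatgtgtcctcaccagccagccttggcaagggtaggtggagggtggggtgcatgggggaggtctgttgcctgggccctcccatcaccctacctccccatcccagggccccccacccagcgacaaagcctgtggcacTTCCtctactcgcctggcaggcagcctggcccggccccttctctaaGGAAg
Car4 (chr11:84957504-84957753, plus strand): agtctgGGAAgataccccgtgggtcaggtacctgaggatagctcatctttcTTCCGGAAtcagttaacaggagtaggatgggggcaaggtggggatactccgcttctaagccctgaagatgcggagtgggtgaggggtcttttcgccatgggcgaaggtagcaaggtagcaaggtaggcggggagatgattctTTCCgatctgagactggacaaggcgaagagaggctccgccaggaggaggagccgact
Clec4g (chr8:3720652-3720901, minus strand): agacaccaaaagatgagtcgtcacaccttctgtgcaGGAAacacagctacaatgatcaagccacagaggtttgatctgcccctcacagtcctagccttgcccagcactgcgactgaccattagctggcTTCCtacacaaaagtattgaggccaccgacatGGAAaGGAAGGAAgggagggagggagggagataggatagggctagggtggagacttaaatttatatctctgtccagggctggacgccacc
Stab1 (chr14:31168642-31168891, minus strand): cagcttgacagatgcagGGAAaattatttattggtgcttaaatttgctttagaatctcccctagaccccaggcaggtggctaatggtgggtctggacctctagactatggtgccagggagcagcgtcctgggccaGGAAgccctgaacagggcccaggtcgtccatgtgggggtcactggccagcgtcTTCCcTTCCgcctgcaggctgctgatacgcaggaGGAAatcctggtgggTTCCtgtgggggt
In GENCODE M21 on GRCm38, Eng lies at chr2:32646595-32682669, Car4 at chr11:84957786-84966044, Clec4g at chr8:3707064-3720651 and Stab1 at chr14:31139013-31168641, so that each window ends before the annotated gene. These windows held 3, 4, 5 and 6 matches to the core, with overlapping matches counted. At least 1 match was found in 21 of the 23 promoters of the set (91.3%), with a median of 4, compared with 93.4% of all 32851 promoters of the same length, with a median of 3. AGATAA, the GATA site, was searched on both strands in the same way and was found in 1 of 23 promoters, compared with 10% of all promoters. Such matches describe the letters only.

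Most of the set was higher in lung-content libraries. Over every library, 26 of the 38 genes had each lung-content library above each liver-content library, as did 23.6% of the 14175 genes that averaged 1 CPM or more. A further 7 genes had each liver-content library above each lung-content library, as did 26.3% of those genes. Flt4, Fli1, Stab1, Gpr182 and Maf overlapped. The content classes were set by counts in the same libraries, so these differences are described and were not tested. Levels are in CPM scaled by edgeR's TMM factors, and the median over all genes of the log2 ratio of lung-content to liver-content medians was -0.08 on this scale but 0.58 when library size alone was used. In bulk RNA, fewer endothelial cells and less RNA per cell cannot be told apart.

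**Figure D1:**
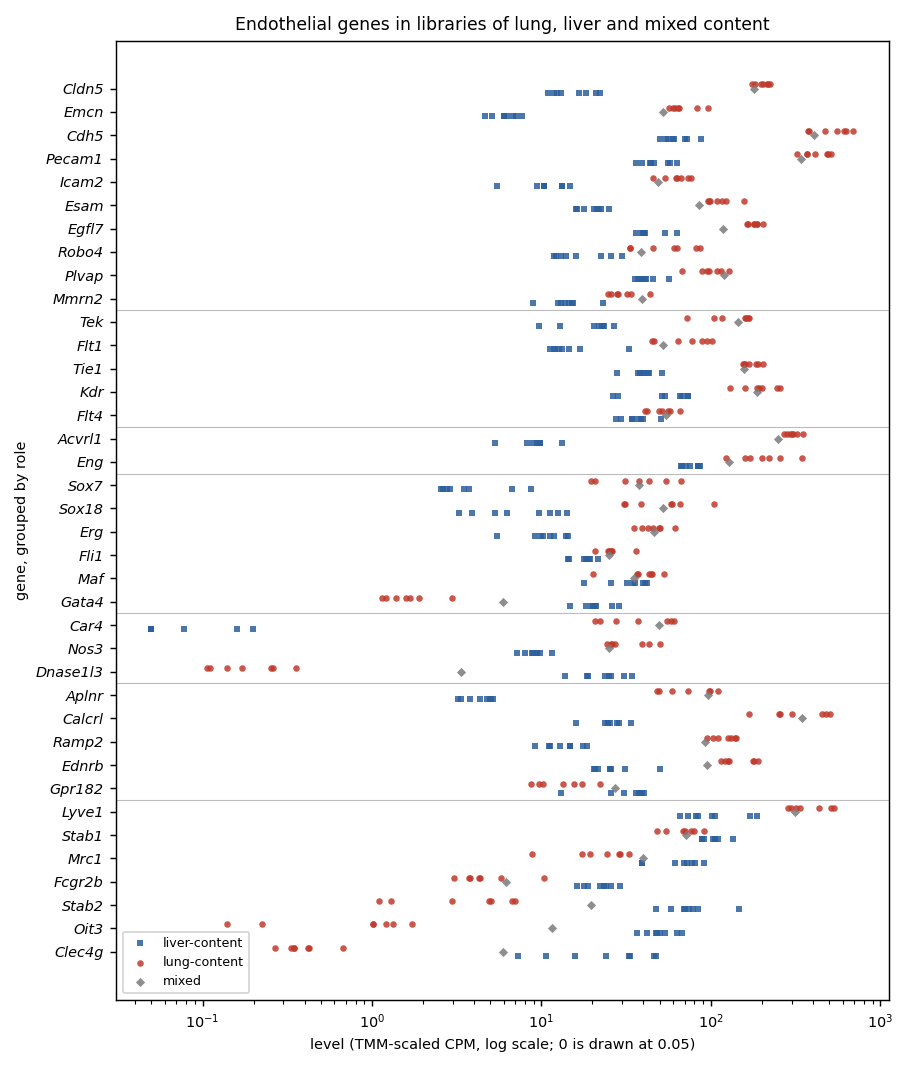
Level of each of the 38 genes in CPM (TMM-scaled, log axis, 0 drawn at 0.05) in each library, with circles for the 7 lung-content, squares for the 8 liver-content and diamonds for the mixed library, and lines between role groups. Circles lie to the right of all squares for 26 genes and to the left of all squares for 7.

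All 10 junction and surface genes were higher in every lung-content library. Cldn5, the claudin that seals endothelial tight junctions, had a lowest, median and highest level of 174, 202 and 222 CPM in lung content and of 11, 14.8 and 22.1 in liver content, a 13.7-fold ratio of medians. Emcn, the sialomucin endomucin, had 56.7, 63.9 and 95.8 CPM against 4.65, 6.14 and 7.64. Cdh5, the VE-cadherin of adherens junctions, had 375, 554 and 694 CPM against 50.3, 59.9 and 87.5. Pecam1, an adhesion protein of endothelium and platelets, had 321, 414 and 509 CPM against 36.0, 45.4 and 63.4. None of these 4 genes had a liver-content library within 2-fold of its lowest lung-content library. Icam2 (45.7 to 76.2 against 5.45 to 14.7 CPM) and Esam (96.3 to 157 against 16.1 to 25.2), which mediate adhesion, followed with ratios of 6.08 and 5.17. Egfl7, a secreted protein (164 to 202 against 36.3 to 63.4), and Robo4, a guidance receptor that limits leakage (33.1 to 86.8 against 11.9 to 29.9), had ratios of 4.47 and 4.04. Plvap, the diaphragm protein of fenestrae, had a ratio of 2.45 (67.6 to 128 against 35.5 to 56.6 CPM). Mmrn2, an extracellular matrix protein, came closest to overlap at a ratio of 1.98, with 24.7 CPM in its lowest lung-content library and 23.0 in its highest liver-content library.

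Among the receptors for vascular endothelial growth factor and the angiopoietins, 4 of 5 did not overlap. Tek, the angiopoietin receptor, had 72.4, 158 and 167 CPM in lung content against 9.71, 22.3 and 26.7 in liver content. Flt1, which binds VEGF and limits its signal, was 6.00-fold higher by its median (45.0 to 101 against 11.3 to 32.9 CPM). Tie1, an orphan receptor that modulates Tek, was 4.22-fold higher (154 to 203 against 27.8 to 51.2 CPM). Kdr, the main signalling receptor of VEGF, was 3.24-fold higher (130 to 255 against 26.6 to 73.1 CPM). The liver-content range of all 4 genes ended below the lung-content range. Flt4, the receptor of VEGF-C that sinusoids and lymphatics carry, had 40.8, 51.2 and 66.0 CPM against 27.5, 35.8 and 50.6, and was the member of this family whose libraries overlapped.

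The receptor pair for BMP9 and BMP10 was higher in every lung-content library, by very different factors. Acvrl1, the type I receptor ALK1, had 271, 299 and 349 CPM in lung content and 5.33, 9.58 and 13.2 in liver content, a 31.2-fold ratio. Eng, its co-receptor endoglin, had 122, 201 and 344 CPM against 66.8, 79.7 and 86.4, a 2.52-fold ratio. Acvrl1 left a wide gap between the contents and Eng a narrow one. In the pathway list below their ligand gene Gdf2 (BMP9) ran the other way, with 12.5 to 31.7 CPM in liver content and 0 to 0.355 in lung content.

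Peptide receptors followed the same side except Gpr182. Aplnr had 48.1, 73.1 and 110 CPM in lung content against 3.24, 4.56 and 5.17 in liver content, a ratio of 16. Calcrl, the receptor that pairs with Ramp2 to bind adrenomedullin, had 168, 300 and 503 CPM against 16.1, 25.1 and 33.8, an 11.9-fold ratio. Ramp2 itself was 9.09-fold higher in lung content (95.1 to 141 against 9.11 to 18.6 CPM), and Ednrb, an endothelin receptor, 5.02-fold (115 to 190 against 20.5 to 49.9 CPM). The order of these 4 genes by ratio was Aplnr, Calcrl, Ramp2 and Ednrb. Gpr182, an atypical chemokine receptor of sinusoids and lymphatics, had 8.63, 13.4 and 22.2 CPM in lung content and 13, 36.9 and 40.3 in liver content, and its libraries overlapped. Ramp2 shares 1103 bp of exon with Vps25 on the same strand, so its reads may be uncertain.

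Car4 was nearly absent outside lung content. Its 7 lung-content libraries held 159 to 1036 counts each (20.6, 37.2 and 60.9 CPM as lowest, median and highest) and its 8 liver-content libraries 0 to 2 counts each, 5 in all. The pooled ratio was 824-fold, with an exact 95% interval of 353 to 2540 that covers counting error only. Dnase1l3, a secreted nuclease of sinusoidal endothelium and macrophages, was the reverse case. It had 13.8, 24.5 and 34.1 CPM in liver content and 1 to 4 counts in each lung-content library, a pooled ratio of 122 (74.7 to 213). Nos3, the endothelial nitric oxide synthase, was 2.99-fold higher in lung content (24.4 to 50.1 against 7.13 to 11.5 CPM). Exons of Nos3 overlap those of Atg9b and Gm15587 on the other strand by 1334 bp, and the use of strand in counting is not given in the sources used here.

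The transcription factors split. Sox7 had 19.6, 37.6 and 66.8 CPM in lung content against 2.55, 3.17 and 8.70 in liver content, a ratio of 11.9. Sox18, a related factor, was 7.29-fold (30.8 to 105 against 3.27 to 14.2 CPM) and Erg, an ETS factor that maintains endothelial identity, 4.22-fold higher there (35.3 to 61.0 against 5.45 to 14.3 CPM). Gata4, the factor that specifies sinusoidal endothelium and is also made by stellate cells, had 14.7, 20.4 and 28.7 CPM in liver content against 1.15, 1.59 and 2.97, a 12.8-fold ratio in favour of liver. Fli1 (20.7 to 36.2 against 14.3 to 21.6 CPM) and Maf (20.1 to 52.6 against 17.9 to 42.2 CPM) overlapped. The ETS factors Erg and Fli1 therefore differed in their ratio, 4.22 against 1.39.

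Of the 7 sinusoidal scavenger and lectin receptors, 5 were higher in every liver-content library. Clec4g, the lectin LSECtin, had 7.23, 28.5 and 47.6 CPM in liver content and 3 to 8 counts per lung-content library, with a pooled ratio of 68.6 (48.7 to 99.8). Oit3, a zona pellucida domain protein, had 36.6, 48.9 and 67.5 CPM against 0.139, 1.02 and 1.72, a pooled ratio of 50.1 (40.3 to 63.0). Stab2, the hyaluronan and scavenger receptor stabilin-2, had 47.4, 72.3 and 146 CPM against 1.10, 4.89 and 6.98, a 14.8-fold ratio. These 3 genes left the largest gaps of the group. Fcgr2b, the inhibitory Fc receptor, was 5.29-fold and Mrc1, the mannose receptor, 2.93-fold higher in liver content. Their lung-content libraries had 3.04, 4.29 and 10.3 CPM of Fcgr2b and 8.77, 24.3 and 32.8 of Mrc1, and their liver-content libraries 16.3, 22.7 and 29.1 CPM and 39.2, 71.1 and 91.5.

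The other members of this group were not higher in every liver-content library. Lyve1, a hyaluronan receptor, had 284, 335 and 536 CPM in lung content and 66.1, 93.0 and 187 in liver content, 3.60-fold higher in lung. Stab1 had 48.4, 70.3 and 91.6 CPM in lung content and 88.2, 104 and 135 in liver content, and its libraries overlapped. Markers of the macrophage list summed to 42.3 to 144 CPM in lung content and to 456 to 974 in liver content, and those of the lymphatic list to 83.1 to 153 and 115 to 189. Of the 5 lymphatic markers, Pdpn and Ccl21a were higher in every lung-content library, and Prox1 and Reln in every liver-content library. Reln alone had 65.7 to 137 CPM in liver content, against 8.79 to 24.4 in lung content. Pdpn had 0.239 to 3.27 CPM in liver content against 16.4 to 66.7 in lung content. Ccl21a had 0 to 0.991 against 14.3 to 33.9 CPM. The lymphatic sums thus rested on different genes in each content and do not compare the amount of lymphatic vessels between them. The part of macrophages and lymphatic vessels in the levels of Lyve1, Stab1, Mrc1, Maf and Fcgr2b was not tested.

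Per kilobase of merged exon, the order of levels also differed between the contents. In lung content the highest medians were those of Cldn5 (143 CPM per kb), Cdh5 (132), Lyve1 (115), Acvrl1 (70.1) and Pecam1 (66.4). In liver content they were those of Lyve1 (31.8), Plvap (20.1), Eng (19.7), Oit3 (17.5) and Cdh5 (14.3). Lyve1 and Cdh5 stood among the first 5 in both. The lowest were Dnase1l3 (0.0334) in lung content and Flt1 (0.958) in liver content, after Car4 with a median of 0.

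Levels were next set beside the mean log2(CPM + 1) of 6 pan-endothelial genes (Pecam1, Cdh5, Tie1, Esam, Egfl7 and Robo4) in the same library. That mean was 7.22 to 7.86 in lung content and 4.83 to 5.41 in liver content, so the contents did not overlap in it. Subtracting it therefore lowers every gene more in lung content than in liver content. Genes with a smaller lung excess than these 6 move towards the liver side by that step alone. Of the 32 other genes, 15 were higher in every liver-content library on this relative scale, 4 were higher in every lung-content library and 13 overlapped. The same counts over all genes were not made. Eng changed side, from a higher level in lung content to a relative level of -0.27 to 0.58 there and of 0.74 to 1.43 in liver content, in log2 units. Plvap and Mmrn2 changed side in the same way, and Flt4, Fli1, Stab1, Gpr182 and Maf went from overlap to a higher relative level in liver content. Only Acvrl1, Car4, Cldn5 and Emcn remained on the lung side. Acvrl1 had a relative level of 0.41 to 0.87 in lung content and -2.75 to -1.51 in liver content. The 1 CPM added before the log limits these differences for Car4, Dnase1l3, Clec4g and Oit3, which were near 0 in one of the contents.

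**Figure D2:**
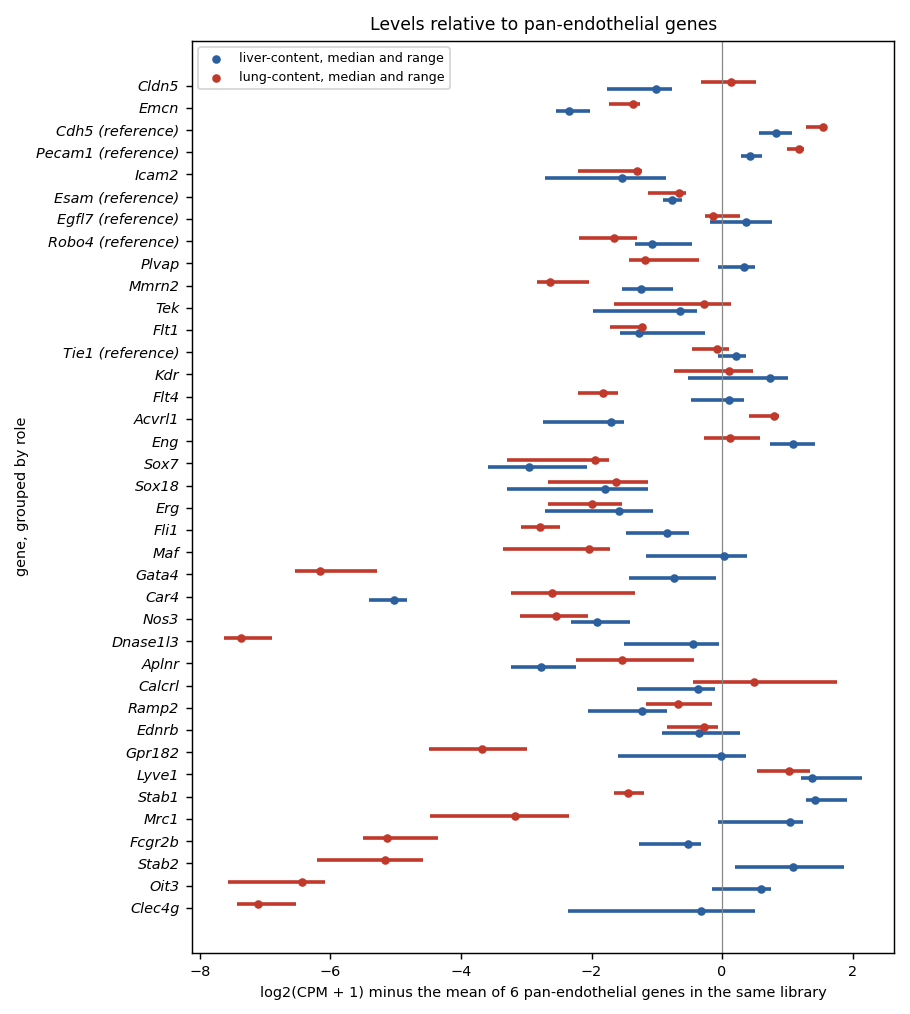
Median (point) and range (line) of each gene's log2(CPM + 1) minus the mean of 6 pan-endothelial genes in the same library, for 7 lung-content and 8 liver-content libraries. Acvrl1, Car4, Cldn5 and Emcn lie to the right in lung content, while 15 genes, Eng and Plvap among them, lie to the right in liver content.

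The mixed library, labelled dead null placebo lung, held both programmes. Its pan-endothelial mean was 7.17, just under the lowest lung-content library at 7.22. Its level was 248 CPM of Acvrl1, 49.4 of Car4 and 95.9 of Aplnr, or 82.8%, 133% and 131% of the lung-content medians. Among sinusoidal genes it had 19.5 CPM of Stab2, 11.6 of Oit3, 5.97 of Clec4g and 3.34 of Dnase1l3, or 27%, 23.8%, 21% and 13.6% of the liver-content medians. All 4 lay above every lung-content library and below every liver-content library, as did Gata4 (5.97 CPM). The other genes of the liver side did not, with Fcgr2b (6.17 CPM) inside the lung-content range and Mrc1 (39.6 CPM) inside the liver-content range. The summed hepatocyte markers stood at 9.94% of their liver-content median in that library, and the macrophage markers at 25.2%.

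The study compared NAC with placebo within each pup group and tissue label, 1 library against 1, with no replicate, so that such a difference compares libraries and not conditions. A 2-fold change or more was counted, the study's own limit of fold change. The study also used an exact test with an assumed coefficient of variation of 0.2, which was not applied here. Each of these 8 pairs joined libraries of different content. In the pair labelled live WT lung, 25 of the 38 genes were at least 2-fold higher with NAC (27.6% of 14184 genes) and 8 lower (28.5%). The pair labelled live Het lung had 25 higher (29%) and 9 lower (31.6%). In these pairs the placebo library had liver content and the NAC library lung content. The directions were turned in the pair labelled dead Het lung, with 7 higher (25.4%) and 26 lower (25.6%), and in that labelled dead null lung, with 5 higher (21.8%) and 23 lower (25.5%), in which the NAC library had liver content. Among pairs labelled liver, live WT had 7 higher (24.7%) and 24 lower (25%), live Het 9 higher (25.2%) and 25 lower (25%), dead null 8 higher (29.1%) and 24 lower (26.7%), and dead Het, the pair whose NAC library had lung content, 25 higher (25.7%) and 7 lower (26.2%).

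The median log2 fold change of the 38 genes was 2.15, 2.05, -2.17 and -1.58 in the pairs labelled lung, for WT and Het pups that lived and then Het and null pups that died. In the pairs labelled liver, in the same order, it was -1.87, -1.93, 1.65 and -1.77, while the median over all genes stayed between -0.14 and 0.08 in the 8 pairs. Acvrl1 had log2 fold changes of 5.2, 5.03, -5.09 and -4.66 in the 4 pairs labelled lung. In the live WT pair its counts went from 119 to 3925 from placebo to NAC, and in the dead Het pair from 3304 to 98. Cdh5 had the same signs, at 3.33, 3.50, -2.91 and -2.21, and Stab2 the opposite signs, at -3.83, -3.81, 5.70 and 1.28. Within a label, the effect of NAC and the exchange of content cannot be told apart.

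**Figure D3:**
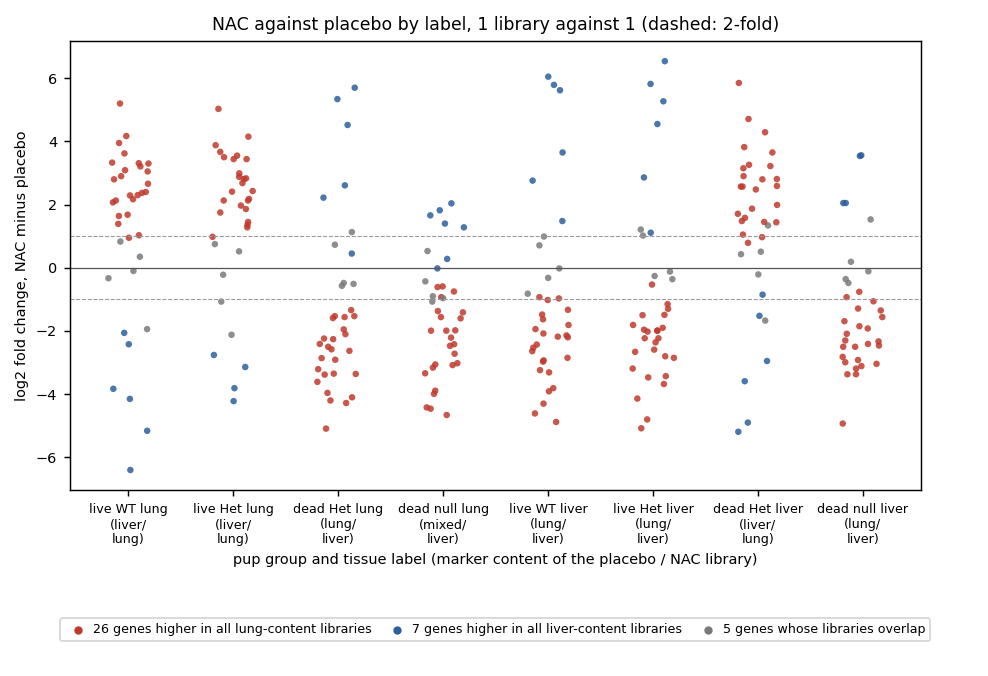
Log2 fold change of NAC over placebo for each gene in the 8 labelled pairs, 1 library against 1, leaving out genes with 3 counts or fewer in either library, with the content of the placebo and the NAC library in brackets and dashed lines at 2-fold. Genes higher in lung content (red) and in liver content (blue) lie on opposite sides of 0 in every pair, apart from 1 blue gene at -0.02 in the pair labelled dead null lung, and the sides change with the content of the NAC library. The colours were set from these same libraries, so the sides are fixed in advance except in the pair with the mixed library.

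NAC was therefore compared with placebo among libraries of the same content, in 1 edgeR quasi-likelihood fit over the 15 libraries of lung or liver content with a term for survival. The fit had no term for genotype. The null library of lung content was labelled placebo and the null libraries of liver content NAC. Treatment and null genotype can therefore not be fully told apart in it. Among lung-content libraries, 3 with NAC and 4 with placebo, only Eng passed at a Benjamini-Hochberg adjusted p under 0.05, 1 of 38 genes against 186 of 14175 (1.31%), of which 122 rose and 64 fell. Without adjustment 10 of the 38 were under 0.05, 6 of them higher and 4 lower, against 23.9% of all genes. DESeq2 called 2 of the 38 (Eng and Calcrl) and 1336 genes in all.

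Eng rose in lung content with NAC. It had 220, 257 and 344 CPM in the NAC libraries of live WT, live Het and dead Het pups, and 169, 122, 201 and 158 CPM in the placebo libraries, those of null pups last. All NAC libraries lay above all placebo libraries in CPM. Relative to the pan-endothelial mean the treatments overlapped, at 0.12 to 0.58 with NAC and -0.27 to 0.38 with placebo in log2 units. In the fit the log2 fold change of Eng was 0.80 ± 0.18 (SE, n = 3 and 4), with an adjusted p of 0.047 by edgeR and 0.00082 by DESeq2. Over 23 alternatives the log2 fold change ran from 0.57 to 0.95. The edgeR call was not stable. Without any one of 12 of the 15 libraries, liver-content ones included, it was lost, with adjusted p up to 0.22 over all alternatives. Among those 15 it was kept only when 1 of the dead null libraries was left out. With pup group as a block within content it was also lost, at 0.74 (adjusted p = 0.0736). In the same fit its log2 fold change of dead over live pups in lung content was 0.39 ± 0.18, which did not pass.

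Of the 10 core genes named above, 5 had log2 fold changes above 0 with NAC in lung content and 5 below, from 0.53 (Cdh5) to -0.52 (Tek), and none passed. Among all 38, the genes other than Eng with higher values and an unadjusted p under 0.05 were Robo4, Cdh5, Flt1, Emcn and Fcgr2b. Robo4 had 63.1, 86.8 and 81.7 CPM with NAC and 45.3, 33.4, 33.1 and 60.6 with placebo (log2 fold change 0.88 ± 0.32, adjusted p = 0.13 by edgeR). Cdh5 had 609, 629 and 694 CPM with NAC and 554, 375, 378 and 473 with placebo, in the same order of pup groups (0.53 ± 0.22, adjusted p = 0.17 by edgeR). Neither gene overlapped between the treatments. The pan-endothelial mean, which includes Robo4 and Cdh5, was 7.66 to 7.86 with NAC and 7.22 to 7.53 with placebo. Its other genes had log2 fold changes of 0.43 (Pecam1), 0.13 (Tie1), 0.17 (Esam) and 0.12 (Egfl7), and none of them passed. Flt1 and Emcn, with log2 fold changes of 0.73 and 0.39, had adjusted p of 0.19 each, and Fcgr2b, with 0.57, had 0.20.

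Calcrl, Aplnr, Car4 and Gpr182 had lower values with NAC, and these differences also missed the threshold in the fit without a block. With pup group as a block, Car4 passed at -1.17 (adjusted p = 0.0476 by edgeR), and the other 3 did not. Calcrl had 253, 300 and 168 CPM with NAC in live WT, live Het and dead Het pups, and 475, 503, 455 and 257 with placebo, those of null pups last (-0.92 ± 0.24, adjusted p = 0.067 by edgeR and 0.0071 by DESeq2). Aplnr had 58.9, 73.1 and 48.1 CPM with NAC and 98.4, 110, 98.0 and 49.5 with placebo (-0.64 ± 0.21, adjusted p = 0.11). Car4 had 20.6, 22.1 and 37.2 CPM with NAC and 54.9, 58, 60.9 and 27.5 with placebo (-0.92 ± 0.36, adjusted p = 0.15). In all 3 genes the dead null placebo library lay among the NAC libraries, and the other placebo libraries lay above every NAC library. Without that library the count of genes called rose to 4, namely Eng, Calcrl, Aplnr and Car4, the last at an adjusted p of 0.0498. Gpr182 had a log2 fold change of -0.87 ± 0.29 (adjusted p = 0.11), and with Calcrl and Eng it passed without either dead null NAC library of liver content.

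**Figure D4:**
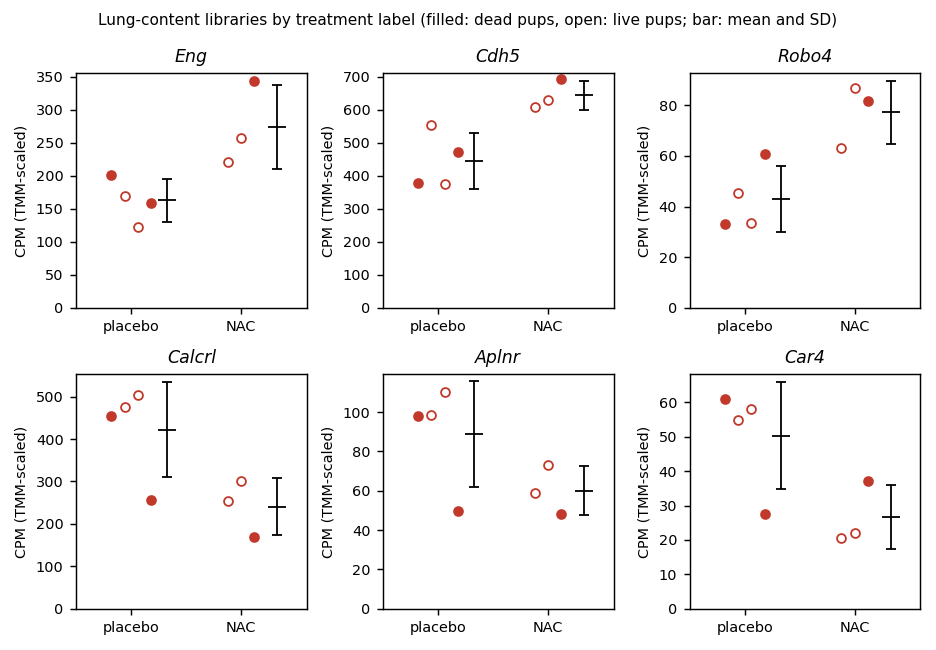
CPM (TMM-scaled) of 6 genes in the lung-content libraries, 4 labelled placebo and 3 labelled NAC, with filled points for dead and open points for live pups and bars for mean and SD. Eng, Cdh5 and Robo4 are higher in the 3 NAC libraries than in all 4 placebo libraries, while Calcrl, Aplnr and Car4 are lower in NAC than in all placebo libraries except that of dead null pups.

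The treatments also differed in ways outside the set. The first principal component over all genes (58.3% of the variance among lung-content libraries) placed the live WT, live Het and dead Het placebo libraries at -33.8 to -38.5, the dead null placebo library at 6.6 and the NAC libraries at 22.3 to 51.0. All 3 NAC libraries in lung content came from groups whose placebo library carried the other tissue label. Scaling by library size alone moved the median log2 fold change over all genes from -0.02 to -0.24 and the number of the 38 genes above 0 from 23 to 16, while Eng kept its direction. Rn45s, a ribosomal RNA, took 4.05 to 26.19% of the counts in lung content. The part of these differences in the differences of Eng, Calcrl, Aplnr and Car4 was not tested.

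Among liver-content libraries, 5 with NAC and 3 with placebo, none of the 38 genes passed by edgeR, and no gene of 14175 did (0%). Without adjustment 1 of the 38 was under 0.05, against 3.77% of all genes, and DESeq2 called 0 of the 38 and 6 genes in all. That gene was Acvrl1, at 8.21, 9.81, 13.2, 9.71 and 9.78 CPM with NAC in the libraries labelled dead Het lung, dead null lung, live WT liver, live Het liver and dead null liver, and 9.45, 8.92 and 5.33 CPM with placebo in live WT, live Het and dead Het pups. Its treatments overlapped, with a log2 fold change of 0.52 ± 0.18 (adjusted p = 1.0 by edgeR). For 32 of the 37 genes with more than 3 counts in the median library, the 95% interval lay within 2-fold in either direction.

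Dead and live pups were compared in the same fit, 3 dead against 4 live libraries of lung content and 4 against 4 of liver content. In lung content, edgeR called 0 of the 38 genes and 0 of 14175 (0%), and DESeq2 called 0 of the 38 and 6 in all. Without adjustment 5 of the 38 were under 0.05, against 1.95% of all genes, with Fcgr2b, Gata4 and Eng higher in dead pups and Calcrl and Aplnr lower. Leaving out Dnase1l3, whose counts were at the floor of 3, log2 fold changes ran from -0.56 (Calcrl) to 0.78 (Fcgr2b), with a median of 0.12 against 0 for all genes. The 95% interval lay within 2-fold for 28 of these 37 genes. Summed erythroid markers were 1426 to 1936 CPM in the dead and 818 to 1137 in the live libraries of lung content, and their part in these values was not tested.

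Fcgr2b had 3.81, 10.3 and 5.79 CPM in the lung-content libraries labelled dead Het placebo lung, dead Het NAC liver and dead null placebo liver, and 4.35, 3.76, 4.29 and 3.04 in those of live pups. Live and dead pups overlapped. The log2 fold change was 0.78 ± 0.25 (unadjusted p = 0.0089, adjusted p = 1.0 by edgeR), with the largest value in a single library. Gata4 had 2.97, 1.89 and 1.67 CPM in the dead and 1.15, 1.39, 1.59 and 1.21 in the live libraries, which did not overlap (0.67 ± 0.27, adjusted p = 1.0 by edgeR). These were 10 to 35 counts of Gata4 per library.

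In liver content, none of the 38 genes passed by edgeR, against 19 of 14175 genes (0.134%), all higher in dead pups, and DESeq2 called 0 of the 38 and 65 in all. At an unadjusted p under 0.05 there were 2 of the 38 genes, against 8.77% of all genes. Dnase1l3 had 18.7, 13.8, 18.5 and 23.8 CPM in the dead libraries labelled dead Het NAC lung, dead null NAC lung, dead Het placebo liver and dead null NAC liver, and 30.8, 25.2, 34.1 and 25.8 in the live ones, with no overlap (-0.66 ± 0.23, adjusted p = 0.54 by edgeR). Acvrl1 had 8.21, 9.81, 5.33 and 9.78 CPM against 9.45, 8.92, 13.2 and 9.71, with overlap (-0.48 ± 0.17, adjusted p = 0.54 by edgeR). Leaving out Car4, log2 fold changes ran from -0.82 (Clec4g) to 0.63 (Lyve1), with a median of -0.20 against -0.01 for all genes.

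The value of Clec4g depended on the pups compared. Clec4g had 15.8, 7.23, 10.6 and 47.6 CPM in the dead liver-content libraries, in the order given for Dnase1l3, and 33, 45.9, 24.0 and 33.2 in the live ones. The dead null NAC library labelled liver held the highest level and the other 3 dead libraries the lowest. Over all libraries the log2 fold change was -0.82, with an adjusted p of 0.62 by edgeR. With Het pups alone it was -1.61 (adjusted p = 0.019), and without the library labelled dead null NAC liver -1.55 (adjusted p = 0.026), while with only the libraries that match their label it was 0.01. Over the macrophage markers, all 9 had log2 fold changes below 0 in dead against live pups of liver content, with a median of -0.54 and none past the test, and their part in this was not tested.

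The first principal component of the liver-content libraries (56% of the variance) did not separate dead from live pups. It placed the libraries labelled live WT placebo lung, live Het placebo lung, live Het NAC liver and dead null NAC liver at 21.7 to 47.1 and the other 4 at -22.2 to -55.6. The libraries with 24.0 CPM of Clec4g or less were those on the lower side of this component. Summed erythroid markers ran from 1769 to 12038 CPM in live and from 1956 to 10156 CPM in dead pups of liver content.

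**Figure D5:**
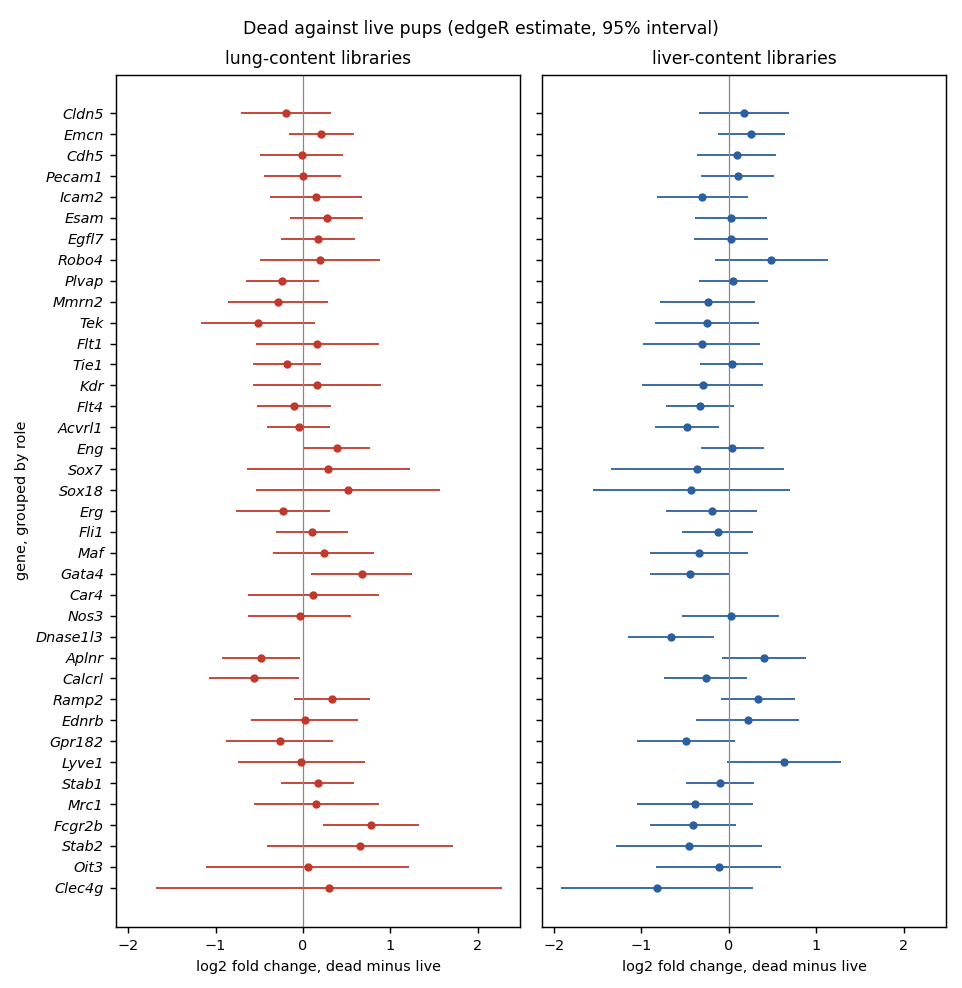
Log2 fold change of dead over live pups for each gene with its 95% interval by edgeR, in lung-content libraries (left, 3 dead and 4 live) and liver-content libraries (right, 4 and 4), leaving out Dnase1l3 on the left and Car4 on the right for their low counts. Most intervals include 0, and no gene passed after adjustment.

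The difference between dead and live pups was not shown to differ between the contents for any of the 38 genes. The interaction passed for 1 of 14175 genes (0.00705%) and 0 of the 38 by edgeR, and for 0 of the 38 and 7 in all by DESeq2. Without adjustment 3 of the 38 were under 0.05, against 4.59% of all genes: Fcgr2b (1.19 ± 0.34) and Gata4 (1.12 ± 0.34), with a larger dead minus live difference in lung content, and Aplnr (-0.88 ± 0.31), with a smaller one. All had an adjusted p of 0.89. The interval of the difference lay within 2-fold for 17 of the 36 genes with enough counts, so that larger differences remained inside the interval for the others.

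A list of 24 other genes of these pathways was followed by counts, with ligands, co-receptors and targets of VEGF, angiopoietin, BMP, apelin, adrenomedullin and endothelin. All 24 were found, and 23 had at least 1 CPM on average. Every lung-content library was above every liver-content library for 16 of them and below for 2, Gdf2 and Bmp10, against 23.6% and 26.3% of all genes. Vegfa had 237 to 599 CPM in lung content and 94.6 to 204 in liver content, Apln, the apelin ligand of Aplnr, 6.27 to 46.9 and 0.198 to 0.740, and Edn3, an endothelin, 12.8 to 57.0 and 0 to 0.297. Bmpr2, the type II receptor that acts with Acvrl1, had 252 to 443 and 24.2 to 46.9 CPM. Ligand and receptor were therefore on the same side for Apln and Aplnr and on opposite sides for Gdf2 and Acvrl1.

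None of the 23 genes tested passed by edgeR in any of the 5 contrasts. With NAC in lung content, 5 were higher and 1 lower at an unadjusted p under 0.05, a share close to the 23.9% of all genes. Edn1 had a log2 fold change of 1.56 (adjusted p = 0.144), Adm, the adrenomedullin ligand of Calcrl, 1.53 (0.209), Angpt2 0.84 (0.177), Smad6 0.78 (0.13) and Bmpr2 0.48 (0.209). Vegfa was the lower one, at -0.84 (0.0643). Of 7 further markers of lung capillaries, Hpgd, a prostaglandin dehydrogenase that epithelium also makes, fell with NAC by 2.26 on the log2 scale in lung content (adjusted p = 0.048 by edgeR), and the other 6 did not pass. Hpgd had 12.4 to 30.6 CPM in the NAC libraries, 22.4 in the dead null placebo library and 83.4 to 157 in the other placebo libraries of lung content. Summed, these 7 markers had 777 to 1078 CPM in lung content and 145 to 221 in liver content. Of 6 further sinusoidal markers found, 2 were higher in every liver-content library, namely F8, the coagulation factor VIII gene (8.02 to 32.0 against 0.279 to 2.81 CPM), and Rspo3, a WNT enhancer (4.52 to 10.7 against 0.424 to 1.13 CPM). The other 4 overlapped, with Wnt2 at 6.69 to 34.5 CPM in lung content and 1.84 to 7 in liver content.

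Markers of the cells around the vessels moved with the contents too. Of 9 markers of pericytes, smooth muscle and stellate cells, 6 were higher in every lung-content library, Pdgfrb and Acta2 among them, and Colec11, a stellate marker, was higher in every liver-content library (17.7 to 39.8 against 0.775 to 1.13 CPM). Lrat, the other stellate marker, had 1.98 to 17.0 CPM in liver content and 0.279 to 1.98 in lung content. Of 9 markers of large vessels, 5 were higher in every lung-content library and 1, Ackr1, in every liver-content library. Megakaryocyte and platelet markers, some of which accompany Pecam1 and Fli1, summed to 17.8 to 34.7 CPM in lung content and 216 to 428 in liver content. Heart markers summed to 79.0 to 276 CPM in lung content and 2.15 to 7.03 in liver content. In lung content hepatocyte markers summed to 19.4 to 194 CPM, beside the low levels of Clec4g, Oit3 and Dnase1l3 there. No gene of these lists other than Hpgd passed by edgeR in the contrasts of NAC or of survival within a content. How far any of these cells set the levels of the 38 genes was not tested.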

How the data were processed

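Poly(A) RNA libraries (Illumina TruSeq stranded kit) were sequenced by the authors, who trimmed adapters and aligned reads to GRCm38 with the Omicsoft aligner. The authors deposited estimated counts per gene symbol, not normalized, in which 6.5 to 8.24% of values per library were not whole. The fit was planned for whole counts, so these estimates were rounded. The submitters' processing notes name R 4.0.3 and edgeR 3.30.3. The sources do not say whether pools of a group share parents, so p-values measure the spread between these pooled libraries.

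The 38 genes, the lists and the tests were chosen with earlier results of these data known. Genes averaging 1 CPM or more were fitted by edgeR 4.0.16 in R 4.3.3 (TMM, quasi-likelihood, Benjamini-Hochberg over 14175 genes, 9 residual degrees of freedom), with a mean for each content and survival class and treatment within content. The square root of the common dispersion was 0.283. The standard error is the absolute log2 fold change over the root of F. DESeq2 1.42.0 was the alternative test. Labelled pairs used edgeR's log2 fold change with a prior count of 0.125 and no p. Values at or under 3 counts were treated as a floor. On simulated counts with 200 genes changed 4-fold, the fit recovered 186 for dead against live in lung content (8 others called among 13978 genes) and 184 for NAC in lung content (4 others among 13992). Before the change each simulated gene had the same mean in all libraries, without differences between contents, and genes of low level were not changed. The recovery of smaller changes in these data is not shown by it. All 38 genes are described. Those past a test, and those with the largest differences between contents, are given by library. Of entries outside the set, Sftpc, Alb, Man1a2 and Hpgd, the gene of the lists that passed a test, are named, and the other pathway genes, Atg9b, Gm15587, Vps25 and Rn45s were named after their values were seen. Positions and exon lengths are from GENCODE M21. Alternatives were other scalings, filters, DESeq2, no treatment term, Het pups alone, label-matching libraries alone, pup group as a block, null NAC libraries of liver content summed, the mixed library as lung content and leaving out each library. Figures were drawn with matplotlib 3.10.9 in Python 3.11.15.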

Additional observations from a re-analysis of the deposited data

Results flagged for a closer look

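Of 76 groups checked (38 genes in each content), 9 had 1 library far from the rest of its group, by a rule with a nominal rate of about 1 in 20. The rate of this rule over all genes was not counted, so an excess over chance is not shown. In lung content the library labelled dead Het NAC liver was the highest for Fli1 (36.2 CPM, next 26.2) and Fcgr2b (10.3 CPM, next 5.79). The library labelled dead Het placebo lung was the highest for Clec4g (0.678 CPM, next 0.424, with 8 counts in each) and Gata4 (2.97 CPM, next 1.89). In liver content the library labelled live WT NAC liver was the highest for Flt1 (32.9 CPM, next 17.0), Mmrn2 (23.0 CPM, next 15.4), Stab1 (135 CPM, next 110) and Stab2 (146 CPM, next 84.1), so that 4 of the 9 came from 1 library. Ednrb was highest in the library labelled dead null NAC lung (49.9 CPM, next 31).

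In the pairs labelled lung, 28 of the 38 genes had log2 fold changes of NAC over placebo above 0 in both live pup groups and below 0 in both dead pup groups, and 7 had the reverse. This difference between live and dead pups was not tested, with 1 library against 1 in each pair. In these pairs the NAC library had lung content in live and liver content in dead pups. Of all 14175 genes, 23.6% were higher in every lung-content library and 26.3% in every liver-content library. The share of all genes with these sign patterns was not counted, so the counts of 28 and 7 are not shown to be particular to the set.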

How the results depend on the processing

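Counts of the 38 genes that separated the contents stayed at 26 to 28 for lung and 5 to 9 for liver over the alternatives, with 26 to 27 and 7 to 8 when each library was left out, and those past 2-fold in the labelled pairs at 28 to 36. For dead against live in lung content, the interaction, and NAC in liver content, every alternative called 0 of the 38. For dead against live in liver content, Het pups alone called 1 (Clec4g), and leaving out each library 0 to 1. The count for NAC in lung content was the least stable. It was 1 in the fit given, 0 with library size alone or every gene with a count, 2 with DESeq2 or the mixed library as lung content, 3 with the null NAC libraries of liver content summed, and 0 to 4 when each library was left out. Over all genes, 186 were called there, against 7 with library size alone, 1336 with DESeq2, 489 with the mixed library, 1562 with the null NAC libraries summed, 364 with pup group as a block (which called Car4 in place of Eng) and 0 to 931 without each library. Dead against live in liver content called 19 genes, against 12 with a filter of 5 CPM, 65 with DESeq2, 799 with Het pups alone, 37 with those null libraries summed, 9 with the mixed library, 0 with no treatment term and 1 to 259 without each library. No analysis paired by replicate number was possible because the labels carry none. With only the 7 label-matching libraries and no treatment term, dead against live in lung content reversed for Eng (-0.24), Calcrl (0.72), Aplnr (0.58) and Fcgr2b (-0.09), and Clec4g in liver content went from -0.82 to 0.01. The causes were not tested. Depth limits Car4 in liver content and Dnase1l3, Clec4g, Oit3 and Gata4 in lung content, where most libraries held few counts.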
